A study of Homo sapiens with 4 samples.

Results

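The Janus kinases (JAK) and the signal transducers and activators of transcription (STAT) were described by messenger RNA level in a B-cell lymphoma line and in its derivative selected for resistance to interleukin-21 (IL-21). The members were the 10 genes JAK1, JAK2, JAK3, TYK2, STAT2, STAT3, STAT4, STAT5A, STAT5B and STAT6, and every probe that the platform annotation gives to one of these symbols was taken, also where it was blank on some arrays. This found 18 probes of 31095 in all, for 9 of the 10 genes. No probe of the annotation carried the symbol STAT2, which was not analysed here, and the 1 probe for STAT4 was blank on all 4 arrays. That left 17 probes for 8 genes, 16 of them with a value on all 4 arrays.

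The 4 groups were RC-K8-R cells 6 h after addition of IL-21 at 100 ng/mL, RC-K8-R cells left untreated, RC-K8 cells given the same IL-21 treatment, and RC-K8 cells left untreated. RC-K8 is an established line of diffuse large B-cell lymphoma that undergoes apoptosis with IL-21. RC-K8-R was made from it by exposure to rising doses of IL-21 over 10 weeks, so the untreated RC-K8-R cells also have a history of IL-21, and the labels do not say whether the line is a clone or a pool. Each group had 1 two-colour Agilent array, on which the sample was labelled with Cy5 and a human reference RNA common to all arrays with Cy3, and no group had a replicate.

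JAK kinases are bound to the inner parts of cytokine receptor chains. When a cytokine brings the chains together, the kinases phosphorylate each other and the receptor, STAT proteins dock there, are phosphorylated, pair, and enter the nucleus to bind DNA. IL-21 is read by the chain IL21R, which carries JAK1, and by the shared chain IL2RG, which carries JAK3, and in B cells it is known mainly for STAT3 activation. The arrays measure RNA and hold nothing on phosphorylation.

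The 3 STAT genes that stood highest after IL-21 in RC-K8, described below, follow each other directly on chromosome 17, in the order STAT5B, STAT5A, STAT3, with no other protein-coding gene of RefSeq between them. Their start regions are shown for that reason, from 250 bases before to 50 bases after the gene's start in RefSeq, build GRCh38.p14, each on the strand of its gene. Windows were found for all 10 members, 18 in all. Both strands were searched for TTCNNNGAA, TTCNNNNGAA and TTCNNGAA, the inverted repeats of TTC with 3, 4 and 2 bases between the arms, of which the first is the usual form of a STAT site and the second is the form preferred by STAT6. Each of these reads the same on both strands, and no matches overlap in the sequences shown. Capitals mark a match, and TTC and GAA arms that do not pair at these distances stay in lower case.
STAT3, chr17:42388393-42388692, minus strand: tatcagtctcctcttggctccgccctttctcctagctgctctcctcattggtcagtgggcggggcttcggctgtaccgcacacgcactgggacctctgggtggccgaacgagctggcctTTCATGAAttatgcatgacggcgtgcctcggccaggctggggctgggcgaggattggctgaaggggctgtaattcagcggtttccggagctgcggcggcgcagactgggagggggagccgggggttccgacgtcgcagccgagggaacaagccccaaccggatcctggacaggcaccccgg
STAT5A, chr17:42287189-42287488, plus strand: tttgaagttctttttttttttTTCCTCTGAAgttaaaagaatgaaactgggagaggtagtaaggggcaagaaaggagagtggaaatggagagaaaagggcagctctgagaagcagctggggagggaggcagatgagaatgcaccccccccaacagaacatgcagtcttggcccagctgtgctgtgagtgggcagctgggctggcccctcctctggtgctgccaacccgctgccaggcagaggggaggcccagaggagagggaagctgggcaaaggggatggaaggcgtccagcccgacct
STAT5B, chr17:42276342-42276641, minus strand: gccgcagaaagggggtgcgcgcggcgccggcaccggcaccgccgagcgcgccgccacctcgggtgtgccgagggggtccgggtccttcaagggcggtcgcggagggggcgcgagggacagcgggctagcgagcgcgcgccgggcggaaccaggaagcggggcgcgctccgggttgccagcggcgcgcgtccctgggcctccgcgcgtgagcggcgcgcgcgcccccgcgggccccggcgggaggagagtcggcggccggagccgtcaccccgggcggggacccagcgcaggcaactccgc

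The STAT3 window held TTCNNGAA once, with its first base at -131 from the start site, and the window of STAT5A held TTCNNNNGAA once, at -229. The other 2 windows of STAT5A and the window of STAT5B held none of the 3 forms. Of the 18 windows of all members, 0 held TTCNNNGAA, 1 held TTCNNNNGAA and 5 held TTCNNGAA, which besides STAT3 were 1 window of JAK1, the window of JAK3 and both windows of STAT4. Over all 35116 windows of the RefSeq table, 7.66% held TTCNNNGAA, 6.44% held TTCNNNNGAA and 7.74% held TTCNNGAA. A match describes the letters and is no evidence of a bound site, and a lack of one covers these windows only. The windows differed in base composition. G and C made up 82.0% of that of STAT5B, 65.3% of that of STAT3 and 56.3% of the one shown for STAT5A. In the other 2 windows of STAT5A they made up 62.3% and 75.0%.

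Values below are log2 ratios of sample to reference RNA, centred on each array's median, and a difference between arrays is a log2 difference. A value of a gene is the median over its probes, each probe being compared only with itself on another array. A difference of 1 or more in size, which is 2-fold, is called here. The log base is not stated in the table, and the values are read as log2; with natural logs all directions would stay and all folds would be larger. With 1 array per group no test between groups was possible and no p-value is given. The error available is the SD between probes of the same gene, with a median over all genes with several probes of 0.13 for IL-21 against untreated in RC-K8-R, 0.16 in RC-K8, 0.31 between the untreated lines and 0.32 between the treated lines. It covers differences between probes, not between cultures.

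The arrays held values for 25246 to 26555 probes, and the log2 ratios had an SD of 1.56 and 1.52 on the RC-K8-R arrays, against 1.31 and 1.26 on those of RC-K8. B cell markers, of which 7 of 10 had a value, had median ratios of 2.13 with IL-21 and 1.73 untreated on the RC-K8-R arrays, against 1.37 with IL-21 and 0.95 untreated on the RC-K8 arrays. Compared gene by gene, 6 of these 7 were 2-fold higher in treated RC-K8-R than in treated RC-K8 (median log2 difference 1.96) and 3 of 7 between untreated lines (0.78). Over all genes, 7.43% were 2-fold higher between treated lines and 3.52% between untreated lines. With IL-21 against untreated the median difference of the B cell markers was 0.28 in RC-K8-R, with none at 2-fold, and -0.75 in RC-K8. In RC-K8 BTK and CD79B were 2-fold lower and POU2AF1 2-fold higher, where 1.73% of all genes were lower and 1.45% higher. The 5 epithelial markers had medians of -4.97 to -3.50 and fibroblast markers, of which 5 or 6 of 6 had a value, -4.87 to -3.88. Markers of T and NK cells, which also use JAK3 and STAT4, had a value for 6 to 8 of 9. Their medians were -2.39 and -1.89 on the RC-K8-R arrays, against -0.34 and -0.52 on the RC-K8 arrays. The genes with a value differed between arrays. Compared gene by gene, the median log2 difference of RC-K8-R against RC-K8 was -1.35 with IL-21 (6 genes) and -1.625 untreated (4 genes). Markers of myeloid cells had a value for 4 or 5 of 8. Their medians were -0.58 and -0.51 on the RC-K8-R arrays, against 0.19 and 0.44 on the RC-K8 arrays. Gene by gene, their median difference was -0.76 with IL-21 (4 genes) and -0.93 untreated (5 genes). Whether these shifts between the lines and with IL-21 have a part in the JAK and STAT values was not tested. As ratios to a reference RNA, the marker values do not show how much of any cell type was present. Every sample is a culture of the RC-K8 line or its derivative, so the markers are read as RNA levels of a culture. Within a culture, fewer cells with a marker and less of its RNA per cell cannot be told apart.

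**Figure D1:**
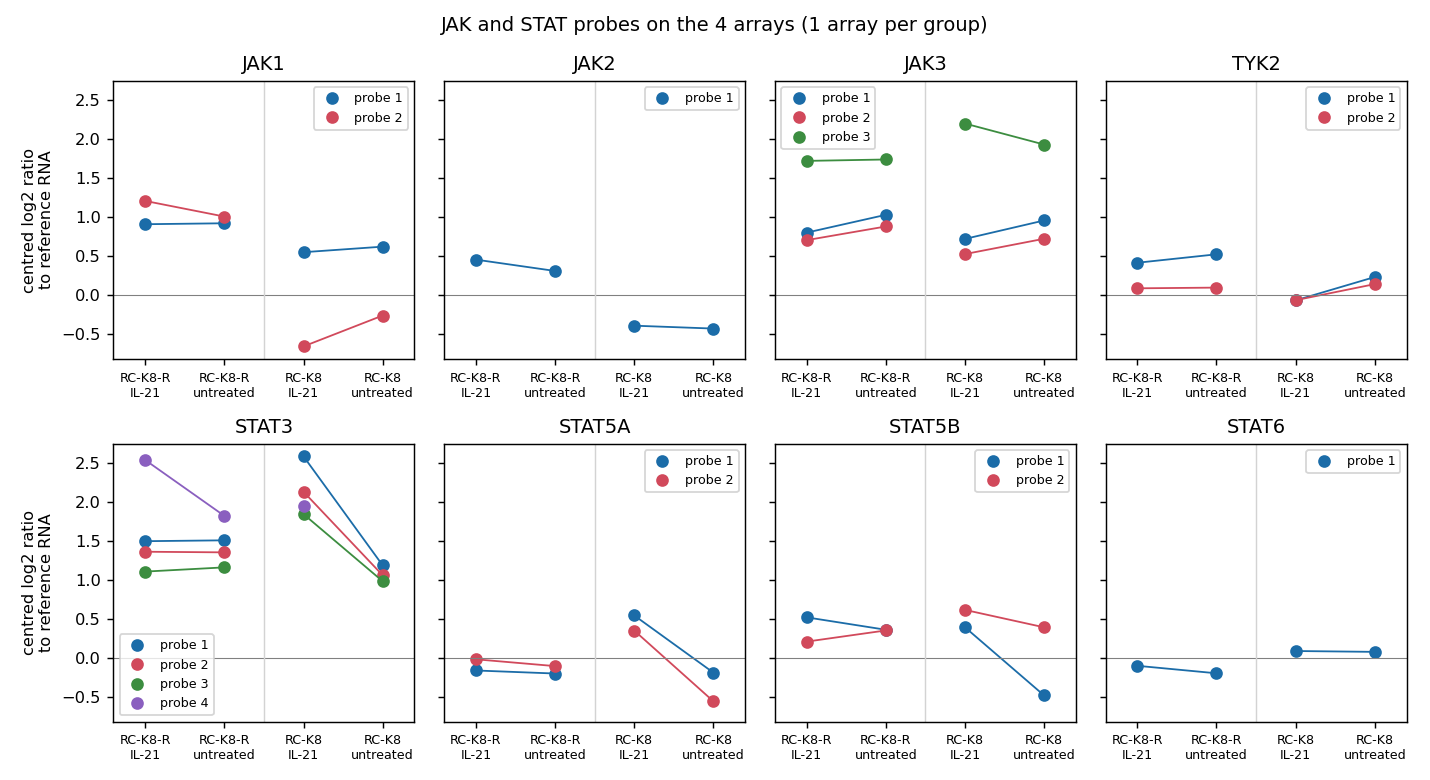
Each panel is a gene and each colour a probe. The vertical axis is the centred log2 ratio to reference RNA, and points are single arrays, joined within a line. The 3 STAT3 probes measured on all arrays and both STAT5A probes stand highest on the array of IL-21 treated RC-K8, and JAK2 and the second JAK1 probe are separated by line rather than by treatment.

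STAT3, the STAT best known for IL-21 signalling, differed by less than the usual SD between probes in RC-K8-R on 3 of its 4 probes, and was 2.10-fold higher with IL-21 in RC-K8. In RC-K8-R its first probe read 1.495 with IL-21 and 1.506 untreated, the second 1.36 with IL-21 and 1.35 untreated, and the third 1.11 with IL-21 and 1.16 untreated. Treated and untreated RC-K8-R thus lay side by side on each of these 3 probes.

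In RC-K8 the first STAT3 probe read 2.58 with IL-21, against 1.19 untreated. The second read 2.13 with IL-21, against 1.06 untreated, and the third 1.84 with IL-21, against 0.98 untreated. All 3 probes were higher on the treated array, by 1.40, 1.07 and 0.86, so the log2 difference of the gene was 1.07 with an SD between probes of 0.27. A larger increase was found for 1.18% of 13890 genes. The response of RC-K8-R minus that of RC-K8 was -1.41, -1.06 and -0.91 on the 3 probes, with a median of -1.06 (SD between probes 0.25). Of 13446 genes, 1.86% had a lower value of this difference of responses.

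A further STAT3 probe, designed on another transcript accession than the 3 above, did not follow them. It read 2.53 on the IL-21 array of RC-K8-R and 1.82 on the untreated one, a log2 difference of 0.715, and 1.94 on the IL-21 array of RC-K8, and it was blank for untreated RC-K8. In RC-K8-R it was therefore higher on the treated array, and among treated arrays it was 0.595 higher in RC-K8-R than in RC-K8, where the other 3 were at -1.085, -0.767 and -0.735. Over all 4 probes STAT3 differed by -0.00 between treated and untreated RC-K8-R, with an SD between probes of 0.37, and by -0.75 between treated RC-K8-R and treated RC-K8, with an SD of 0.75. With each gene read from its probe of highest mean ratio, which here is this probe, the line comparison under IL-21 turned to 0.595. The probe sequences were not used here, so the part of the STAT3 transcript that it reads is not known.

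STAT5A and STAT5B are close relatives of each other, activated by receptors such as those of IL-2, IL-7 and growth hormone. With IL-21 they stayed near their untreated level in RC-K8-R and were higher in RC-K8, where neither reached 2-fold. In RC-K8-R the first STAT5A probe read -0.16 with IL-21 and -0.20 untreated, the second -0.02 with IL-21 and -0.10 untreated. In RC-K8 the first read 0.55 with IL-21, against -0.19 untreated, and the second 0.35 with IL-21, against -0.55 untreated. The treated array of RC-K8 was thus the highest of the 4 for both STAT5A probes. Its log2 difference in RC-K8 was 0.82 (SD between probes 0.12), and 2.57% of genes had a larger increase. The difference of responses was -0.76 for STAT5A (SD between probes 0.09).

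The probes of STAT5B disagreed. In RC-K8-R they went in opposite directions, with 0.52 on the IL-21 array and 0.36 untreated for the first and 0.21 with IL-21 and 0.35 untreated for the second. In RC-K8 the first read 0.39 with IL-21, against -0.48 untreated, a difference of 0.87, while the second read 0.62 with IL-21, against 0.39 untreated, a difference of 0.22. The STAT5B value in RC-K8 was 0.55 with an SD between probes of 0.46, so its size is uncertain although both probes were higher. Whether a probe of STAT5A or STAT5B also binds RNA of the other was not tested.

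STAT6, which carries the signals of IL-4 and IL-13, stayed near its untreated level on its 1 probe. It read -0.10 with IL-21 and -0.20 untreated in RC-K8-R, and 0.09 with IL-21 and 0.08 untreated in RC-K8. The log2 differences with IL-21 were 0.10 in RC-K8-R and 0.01 in RC-K8, both under the usual SD between probes. The STAT6 probe was lower in RC-K8-R than in RC-K8, by 0.27 untreated and 0.19 with IL-21, sizes also under the usual SD between probes.

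In RC-K8 the kinases responded less to IL-21 than STAT3 did. With IL-21 in RC-K8, TYK2, the kinase of the type I interferon and IL-12 receptors, differed by -0.25 with both probes lower (SD between probes 0.07). JAK1, which pairs with IL21R and with many other chains, differed by -0.23, from probes at -0.07 and -0.40. JAK3, which is bound by IL2RG alone, differed by -0.20, from probes at -0.24, -0.20 and 0.27, so its direction is not settled. JAK2, the kinase of the erythropoietin, growth hormone and interferon gamma receptors, differed by 0.04 on 1 probe. In size these lay well inside the values of all genes, since 43.0% of genes differed by at least as much as TYK2.

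JAK3 had 3 probes, the most of the kinases. In RC-K8-R its probes read 0.80, 0.71 and 1.72 with IL-21, against 1.03, 0.88 and 1.74 untreated. In RC-K8 they read 0.72, 0.53 and 2.20 with IL-21, against 0.96, 0.72 and 1.93 untreated. The first and second probes were lower with IL-21 in both lines by similar amounts, -0.23 and -0.18 in RC-K8-R and -0.24 and -0.20 in RC-K8, and the third went the other way in RC-K8. The JAK3 difference of responses was 0.01 (SD between probes 0.17).

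In count, 0 of the 8 measured members were 2-fold higher and 0 were 2-fold lower with IL-21 in RC-K8-R, where 0.407% of 14251 genes were past 2-fold upwards and 0.681% downwards. The members there ran from -0.18 for JAK3 to 0.15 for JAK2, with a median of 0.04, against 0.00 for all genes. In RC-K8, 1 of 8 members, STAT3, was 2-fold higher and 0 were 2-fold lower, where 1.45% of 13890 genes were past 2-fold upwards and 1.73% downwards. At 1.5-fold, 2 members were higher, STAT3 and STAT5A, and 5.80% of genes. The median over members was 0.02, against -0.04 for all genes, and the 3 members furthest above 0 were STAT3, STAT5A and STAT5B. For the difference of responses, 1 of 8 members, STAT3, was 2-fold lower and 0 were 2-fold higher, where 2.31% of genes were 2-fold lower and 2.47% higher.

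**Figure D2:**
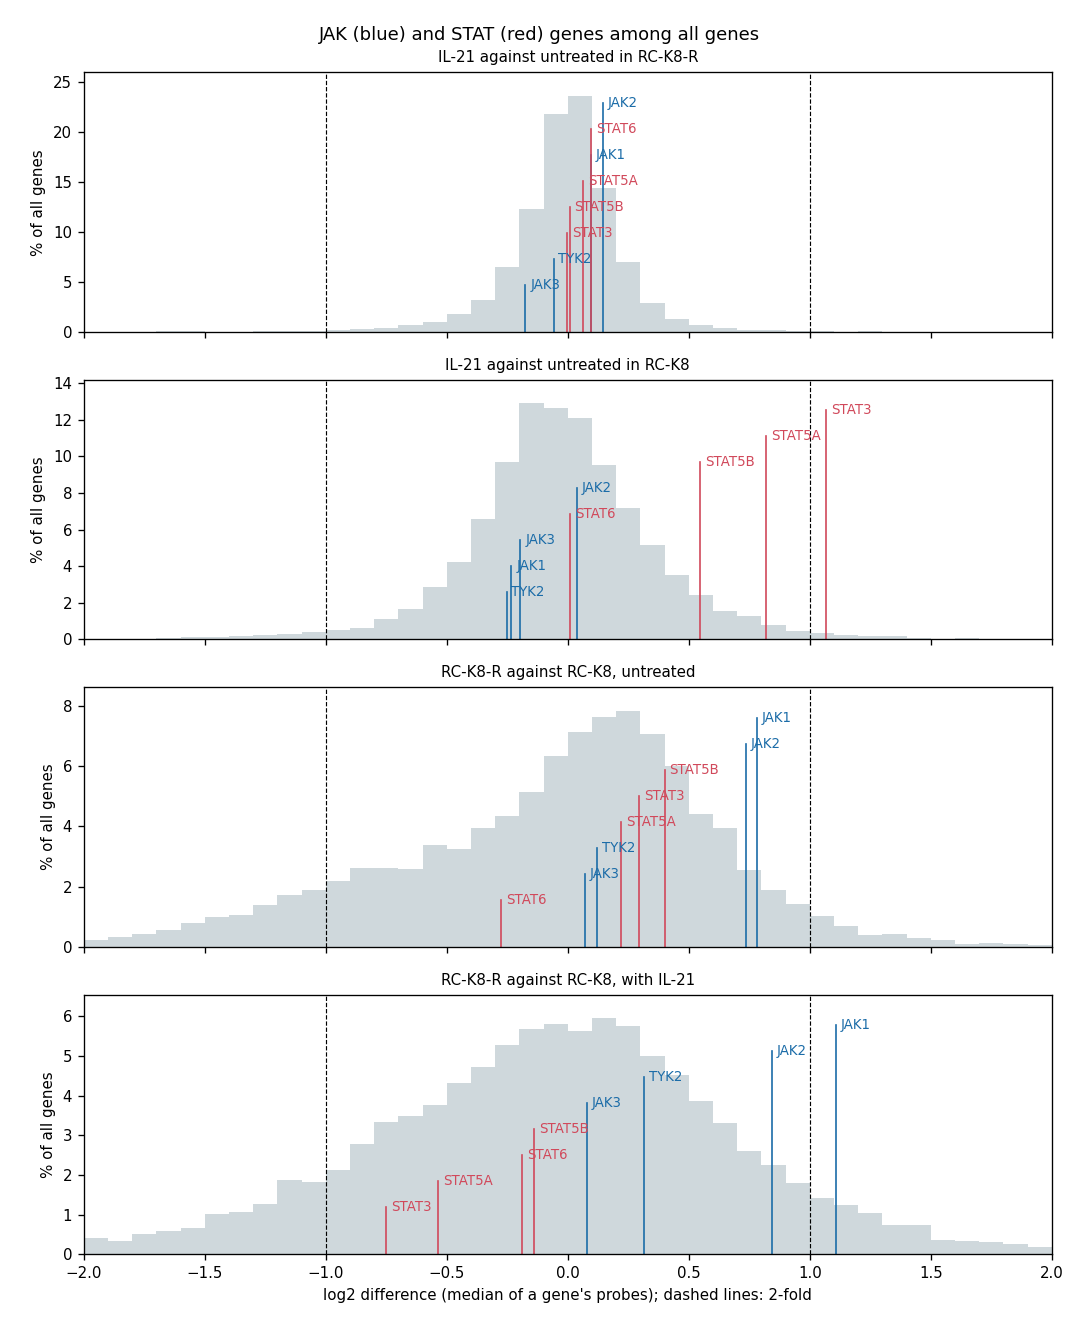
Grey bars show the share of all genes, in percent, at each log2 difference in 4 comparisons, and coloured lines mark the JAK genes in blue and the STAT genes in red. The height of a coloured line has no meaning, dashed lines mark 2-fold, and genes beyond the axis are not drawn. For treatment within a line, STAT3, STAT5A and STAT5B lie near the middle in RC-K8-R (-0.00, 0.06 and 0.01) and on the right flank in RC-K8 (1.07, 0.82 and 0.55), while JAK1 and JAK2 lie on the right flank in both comparisons between lines.

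Because STAT5B, STAT5A and STAT3 are adjacent, the next 8 protein-coding genes on each side were read as well, a comparison chosen after the values had been seen. In RC-K8-R, 14 of these 16 genes had a value with IL-21 against untreated and ran from -0.31 to 0.39, and STAT5B, STAT5A and STAT3 lay among them at 0.01, 0.06 and -0.00. In RC-K8, 15 of them had a value, from -0.28 for HSPB9 to 0.42 for KAT2A, a histone acetyltransferase, with a median of -0.07. None of the 15 was 1.5-fold higher or lower, whereas STAT3 and STAT5A were past 1.5-fold and STAT5B was at 1.46-fold. The STAT5B value is the median of probes at 0.87 and 0.22, of which the second lies below KAT2A. The immediate neighbours in RC-K8 were GHDC at -0.23 beside STAT5B and CAVIN1, a coat protein of caveolae, at -0.13 beside STAT3.

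**Figure D3:**
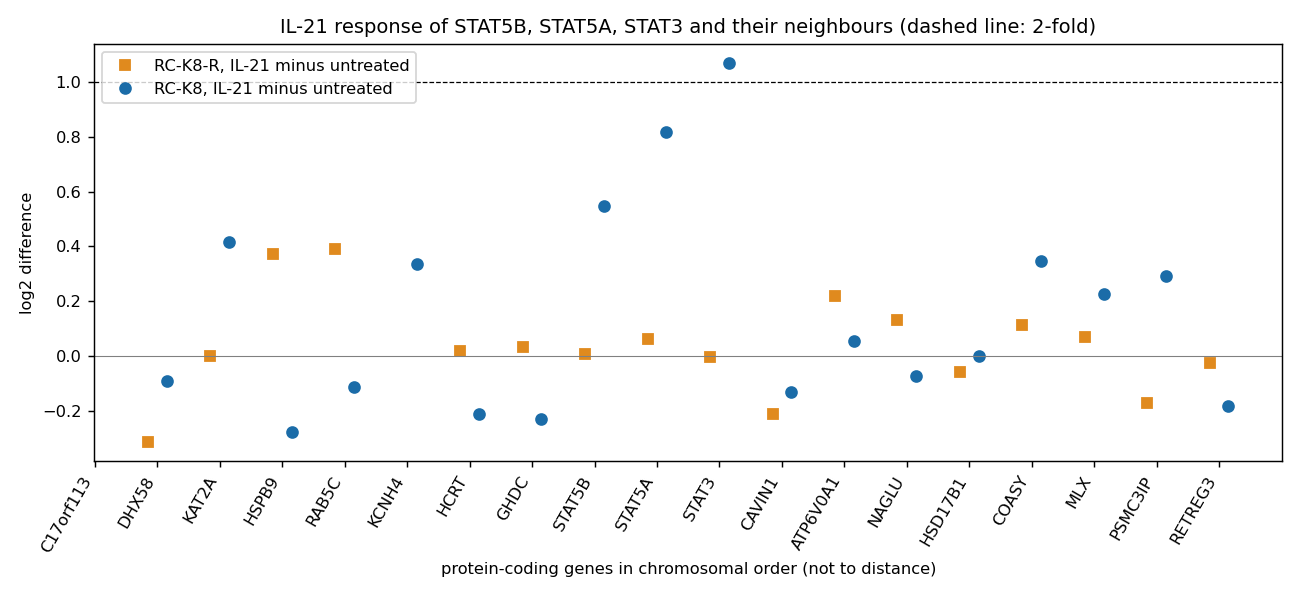
Protein-coding genes are placed along the horizontal axis in chromosomal order, not by distance, and the vertical axis is the log2 difference of IL-21 minus untreated. Squares are RC-K8-R and circles RC-K8, with 1 array per group. In RC-K8 the circles of STAT5B, STAT5A and STAT3 lie at 0.55, 0.82 and 1.07, above the highest flanking gene at 0.42. The STAT5B circle is the median of probes at 0.87 and 0.22, of which the second is below that gene.

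JAK1 and JAK2 were higher in RC-K8-R than in RC-K8 both without and with IL-21. The JAK2 probe read 0.31 in untreated RC-K8-R, against -0.43 in untreated RC-K8, and 0.46 in treated RC-K8-R, against -0.39 in treated RC-K8. Both RC-K8-R arrays lay above both RC-K8 arrays, with differences of 0.74 untreated and 0.85 with IL-21, or 1.67-fold and 1.80-fold. Treatment moved JAK2 by 0.15 in RC-K8-R and 0.04 in RC-K8, less than the lines differed. Among all genes, 8.27% were further up than JAK2 in the untreated comparison and 10.3% in the treated one.

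The probes of JAK1 agreed in direction and not in size. The first read 0.92 in untreated RC-K8-R, against 0.62 in untreated RC-K8, and 0.91 in treated RC-K8-R, against 0.55 in treated RC-K8. The second read 1.01 in untreated RC-K8-R, against -0.26 in untreated RC-K8, and 1.21 in treated RC-K8-R, against -0.65 in treated RC-K8. Both probes were higher in RC-K8-R under both conditions, by 0.30 and 1.27 untreated and by 0.36 and 1.86 with IL-21. The gene values were 0.78 untreated (SD between probes 0.68) and 1.11 with IL-21 (SD between probes 1.06). The 2-fold call under IL-21 therefore rests on the second probe, and it was 0.36 when JAK1 was read from its probe of highest mean ratio and 0.98 after quantile normalization.

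JAK3 and TYK2 differed little between the lines. JAK3 differed by 0.07 untreated and 0.08 with IL-21, and its probes had both signs. TYK2 probes read 0.53 and 0.10 in untreated RC-K8-R, against 0.24 and 0.14 in untreated RC-K8, and 0.42 and 0.09 in treated RC-K8-R, against -0.06 and -0.06 in treated RC-K8. That gave TYK2 differences of 0.12 untreated, with probes of both signs, and 0.32 with IL-21, which is the size of the usual SD between probes in that comparison.

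Untreated, the STAT genes of RC-K8-R were near those of RC-K8. STAT3 differed by 0.29 (SD between 3 probes 0.08), STAT5A by 0.22, from probes at -0.01 and 0.45, and STAT5B by 0.40, from probes at 0.84 and -0.04. The STAT3 value was -0.04 after a loess correction for level, so no direction is read. With IL-21, STAT3 was -0.75 and STAT5A -0.54 in RC-K8-R against RC-K8, with both STAT5A probes lower, and STAT5B was -0.14 with probes of both signs. These comparisons and those of treatment within RC-K8 use the same array of treated RC-K8, on which STAT3 and STAT5A were highest.

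In count, 0 of 8 members were 2-fold higher and 0 were 2-fold lower between untreated lines, where 3.52% of 13903 genes were past 2-fold upwards in RC-K8-R and 10.3% downwards. With IL-21, 1 of 8, JAK1, was 2-fold higher in RC-K8-R and 0 were 2-fold lower, where 7.43% of 13938 genes were past 2-fold upwards and 10.6% downwards, so that a single call among 8 is near the share of all genes. The median over members was 0.26 untreated, against 0.05 for all genes, and -0.03 with IL-21, the same as for all genes.

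The receptor chains that carry these kinases were read from lists by kinase. For comparison, 3.52% of all genes were 2-fold higher and 10.3% lower between untreated lines, and 7.43% and 10.6% between treated lines. Of chains bound by JAK1, 8 of 10 could be compared between untreated lines, and IL10RA, the IL-10 receptor chain, and IFNLR1, of the interferon lambda receptor, were 2-fold higher in RC-K8-R, at 1.20 and 1.05. With IL-21 against untreated, IL10RA was at 0.22 in RC-K8-R and at -1.01 in RC-K8 (3 probes, -1.32 to -0.67). Between treated lines IL10RA (2.30) and IFNLR1 (1.35) were again 2-fold higher in RC-K8-R. IL7R, of the IL-7 receptor, was 2-fold lower there (-1.67, 1 probe). Its ratios were low, at -4.395 in treated RC-K8-R, against -2.721 in treated RC-K8, and it was blank for untreated RC-K8-R. IL21R differed by 0.12 or less in size in each comparison. IL2RG, the chain that JAK3 binds, read -2.46 in untreated RC-K8-R, against 0.80 in untreated RC-K8, and -2.39 in treated RC-K8-R, against 0.41 in treated RC-K8, on 1 probe. It was thus the chain with the largest line difference on these lists, at -3.26 untreated and -2.80 with IL-21, while JAK3 itself differed by 0.07 and 0.08.

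Of chains bound by JAK2, 5 of 9 could be compared between the lines. CSF2RB, shared by the receptors of IL-3, IL-5 and GM-CSF, and IL12RB2 were both 2-fold lower in untreated RC-K8-R, each at -1.07, and again with IL-21, at -1.23 and -1.34. EPOR and IFNGR2 were within 2-fold. Among all genes, 10.3% were 2-fold lower between untreated lines, and between treated lines 10.6% were lower and 7.43% higher. Of the 4 chains bound by TYK2, IFNAR1 of the type I interferon receptor was 2-fold higher in treated RC-K8-R (1.05) and 0.71 higher untreated. For IL-21 against untreated, no measured chain of the JAK2 and TYK2 lists was at 2-fold in either line.

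Inhibitors of the pathway differed in few members. Of 14 measured JAK inhibitors and phosphatases, none was at 2-fold with IL-21 in RC-K8-R, where the list median was 0.09 and SOCS3, a feedback inhibitor of JAK kinases, was at 0.18. In RC-K8 SOCS3 alone was at 2-fold, at 3.13 on 1 probe, where 1.45% of all genes were 2-fold higher. The list median there was 0.24, against -0.04 for all genes. SOCS4 was higher in RC-K8-R than in RC-K8, at 1.41 untreated and 1.34 with IL-21, and CBL, a ubiquitin ligase, was at 0.92 and 1.62 with probes that differed widely (0.78 and 2.45 with IL-21). The share of all genes 2-fold higher was 3.52% between untreated lines and 7.43% between treated lines.

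A list of STAT partners and coactivators also held STAM2 and the PIAS proteins, which restrain STATs. Its median was 0.54 between the untreated lines, against 0.05 for all genes. Of its 10 measured genes 9 were above 0, as were 53.4% of all genes, and of the 4 PIAS genes PIAS1, PIAS2 and PIAS3 were at 0.30, 0.695 and 0.14 and PIAS4 at -0.45. IRF9, which joins STAT2 in the interferon-responsive complex, was 2-fold higher in untreated RC-K8-R (1.54, 1 probe), at 1.33, against -0.22 in untreated RC-K8. IL-21 treatment left IRF9 0.07 higher in RC-K8-R and 0.68 higher in RC-K8. The coactivators EP300 and NCOA1 were 2-fold higher in treated RC-K8-R than in treated RC-K8, at 1.18 and 1.40. EP300 rests on probes at 0.75 and 1.61, of which 1 is past 2-fold, and NCOA1 on 1 probe. The share of all genes 2-fold higher was 3.52% between untreated lines and 7.43% between treated lines.

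Genes known as STAT targets were read from 4 lists, chosen with earlier results of these data known. In RC-K8-R no measured gene of the STAT3, STAT5, STAT6 or STAT2 and IRF9 lists was at 2-fold with IL-21. In RC-K8, 3 of 14 measured genes of the STAT3 list were 2-fold higher, SOCS3, the B cell repressor BCL6 (1.59) and the AP-1 factor BATF (1.68), and 1, the survival gene BCL2L1, was 2-fold lower (-1.67), where 1.45% of all genes were higher and 1.73% lower. PIM1, JUNB and MCL1, also on that list, differed there by -0.01, 0.09 and 0.27. On the STAT5 list, with 9 measured, IL2RA and OSM were 2-fold higher in RC-K8 and BCL2L1, which is on both lists, was lower. IL2RA, the IL-2 receptor alpha chain, was at -0.39 in RC-K8-R and 2.18 in RC-K8 (2 probes, 1.498 and 2.855). The cytokine OSM was at 0.09 in RC-K8-R and 1.53 in RC-K8. CISH and BCL2, of the same list, were at 0.11 and -0.00 in RC-K8.

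Between treated lines, 3 of the 14 STAT3 list genes were 2-fold higher in RC-K8-R, which were BCL2L1 (3.49), IRF4 (1.37), a regulator of plasma cell and activated B cell programs, and JUNB (1.35). On that list 5 were 2-fold lower, which were SOCS3 (-2.28, from probes at -3.35 and -1.21), FOS (-1.78), the cyclin CCND2 (-1.41), BCL6 (-1.34) and BATF (-1.24). In this comparison 7.43% of all genes were higher and 10.6% lower at 2-fold. Between untreated lines BCL2L1 (1.48) was 2-fold higher and FOS (-1.43) 2-fold lower. The list median was -0.06 with IL-21, against -0.03 for all genes. The comparison of treated lines shares its array of treated RC-K8 with the comparison of treatment within RC-K8.

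Between untreated lines the STAT2 and IRF9 list was divided, with ISG15 (1.66), IFIT1 (1.39) and OAS1 (1.33) 2-fold higher in RC-K8-R and IFIT2 (-1.04) and USP18 (-1.99) 2-fold lower, of 8 measured. Between treated lines the log2 differences of ISG15, IFIT1, OAS1 and USP18 were 2.35, 1.36, 1.08 and -1.07, of 7 measured. Over all genes, 3.52% were 2-fold higher and 10.3% lower between untreated lines, and 7.43% and 10.6% between treated lines. On the STAT6 list FCER2, the low affinity IgE receptor CD23, was 2-fold higher in RC-K8-R (1.44 untreated and 1.69 with IL-21) and GATA3 was lower (-1.01 untreated), while STAT6 itself was at -0.27 and -0.19. IL2RA was 1.75 higher in untreated RC-K8-R than in untreated RC-K8 and -0.82 with IL-21. Several genes stand on more than 1 of these lists, which were assembled from general knowledge of the pathway with earlier results of these data known. Counts on the lists are therefore not independent of these data, and no test of a list was made.

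For the members that reached 2-fold in any comparison, the genes with the nearest profile over the 4 arrays were sought among 13446 genes, each profile being taken relative to its own mean and compared by Euclidean distance. The nearest to STAT3 were CD320, the transcobalamin receptor (distance 0.04), SLC43A1, an amino acid transporter (0.06), and the pseudogene FAM86C1P (0.08). CD320 differed by -0.01 with IL-21 in RC-K8-R and by 1.03 in RC-K8. The nearest to JAK1 were DENND4A (0.02), CLASP1, a microtubule-binding protein (0.03), and the kinase MAPKAPK2 (0.04). The distance is over 4 arrays and is a description only.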

How the data were processed

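RNA of 4 samples was measured on 2-colour arrays, 1 per group. The deposited values are 1 log2 ratio per probe and array as read here: base, centring and direction are not stated, and how the authors scanned, corrected, normalized and filtered the spots is not given in the sources used here. Direction follows from the dyes in the labels (Cy5 sample, Cy3 reference). Array medians as deposited were -0.11, -0.11, -0.12 and -0.11. Of 31095 probes, 25570 had 1 symbol in the platform annotation, 28 several and 5497 none; all 10 members are in the RefSeq table.

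Arrays were centred on their medians, taken over 23260 probes complete on all 4. Differences were taken per probe, over every probe measured on the arrays compared, and the median over probes was the gene value. Calls were at 2-fold; 9 alternatives were run (statsmodels 0.14.6 for loess, span 0.3). The calculation was tested on simulated data without blanks and with planted differences well past 2-fold. The handling of blanks and of values near 2-fold was not tested. By rule, the genes named were all members, list genes at 2-fold (up to a limit per list) and the 3 nearest profiles. Some list genes below 2-fold, and some genes flanking STAT5B, STAT5A and STAT3, were named outside this rule. The members and lists were chosen with earlier results of these data known. The number of arrays limits the precision.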

Additional observations from a re-analysis of the deposited data

How the results depend on the processing

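No paired analysis was possible because each group has 1 array and the labels carry no replicate numbers. Over 9 alternatives (no centring, quantile normalization, equal median absolute deviation, loess, mean of probes, the probe of highest mean ratio, probes complete on all 4 arrays, a 1.5-fold threshold, natural logs), the medians over members moved by less than the usual SD between probes. No member changed sign where it was at 2-fold, and single genes of the lists were not followed over the alternatives. Some members not at 2-fold did change sign, among them STAT3 between treated lines. On the probe of highest mean ratio, JAK3 with IL-21 in RC-K8 turned to 0.269 and STAT5B between untreated lines to -0.04. STAT3 with IL-21 in RC-K8 ran from 1.06 to 1.54 and the STAT3 difference of responses from -1.53 to -1.06. The further STAT3 probe, blank for untreated RC-K8, enters neither range, so these results were not tested on it. Under the setting of highest mean ratio they were 1.395 and -1.406, from the first STAT3 probe. Under both the 1.5-fold threshold and natural logs, members higher numbered 2 for IL-21 in RC-K8, 2 between untreated lines and 2 between treated lines, and members lower numbered 1 between treated lines and 2 for the difference of responses. Over all genes the same shares were 5.80%, 14.0%, 17.9%, 22.9% and 8.13% at 1.5-fold and 4.05%, 9.56%, 14.2%, 19.1% and 5.89% with natural logs, and nothing is read from 1 or 2 of 8 between lines. Between treated lines, quantile normalization gave 0 members higher and 1 lower, loess gave 1 lower, and the probe of highest mean ratio gave 0 higher. STAT3 there was -1.15 with quantile normalization, -1.16 with loess and 0.595 on the probe of highest ratio; the last follows from the choice of probe, and the cause of the others was not tested. STAT3 with IL-21 in RC-K8-R was 0.715 on that probe and 0.16 as the mean of probes. Signal over background was not used here, so weak spots could not be told from strong ones.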
